A study of Mus musculus with 9 samples.

Results

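Open chromatin near 10 genes of the Hippo signalling pathway was examined in sorted cells of the mouse cochlear duct: the DNA-binding factors Tead1, Tead2, Tead3 and Tead4, their coactivators Yap1 and Wwtr1 (Taz), the kinases Lats1 and Lats2, and the target genes Ctgf and Cyr61. A peak belonged to a gene when its summit lay closer to a start site of that gene than to the start site of any other protein-coding transcript, within 500 kb, in the mm9 mouse genome with GENCODE vM1 gene models. Peaks of the 9 deposited lists that overlapped or lay within 100 bp of each other were joined, which gave 71 regions for these genes among 69415 regions in all. The assay was ATAC-seq, in which a transposase inserts sequencing adapters into accessible DNA, so a peak marks DNA that was open in part of the cells. Cells came from heterozygous Sox2-EGFP embryos (strain B6;129S-Sox2tm2Hoch/J), which carry EGFP in place of 1 copy of the Sox2 coding sequence in every sample of both cell types. Cells with the highest EGFP, Sox2-EGFP+, were collected at E12, E14.5 and E16 with 2 samples at each stage, and cells with the lowest EGFP, Sox2-EGFP-, at E14.5 with 1 sample and at E16 with 2 samples. Each Sox2-EGFP+ replicate pooled the ducts of its own litter, cells of intermediate EGFP were left out, and no Sox2-EGFP- sample of E12 was analysed here, so the cell types were compared at E14.5 and E16.

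In the Hippo pathway, Lats1 and Lats2 phosphorylate Yap1 and Wwtr1, which are then kept out of the nucleus. Without this phosphorylation Yap1 and Wwtr1 enter the nucleus and bind Tead factors on DNA, where they switch on genes of growth and matrix such as Ctgf and Cyr61. In the inner ear, Yap1 and Tead factors are known for promoting proliferation of sensory progenitors, and the prosensory cells marked by Sox2 leave the cell cycle during the stages sampled here. Tead factors recognise the core CATTCC, read as GGAATG on the other strand.

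Selected sequences are shown first, from the mm9 genome. They are 201 bases centred on the strongest summit of 4 regions with peaks in Sox2-EGFP+ samples alone and of 2 in Sox2-EGFP- samples alone. Then come the 250 bases before the start site of Cyr61, a target gene of Tead factors. Tead1 +41.0 kb, with peaks in 5 Sox2-EGFP+ samples, is shown because it holds the Tead core. Regions of the same pattern without a core near the summit are not shown, so these sequences do not compare core frequency between the cell types. Capitals mark the Tead core on either strand. The first 6 are on the plus strand of the genome, and the last is on the strand of its gene.
Ctgf -149.2 kb, Sox2-EGFP+, chr10:24166091-24166291: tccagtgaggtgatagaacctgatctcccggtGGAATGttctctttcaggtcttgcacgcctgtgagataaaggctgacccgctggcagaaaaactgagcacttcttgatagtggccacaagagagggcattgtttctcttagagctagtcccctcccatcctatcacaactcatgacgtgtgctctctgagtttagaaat
Tead1 +41.0 kb, Sox2-EGFP+, chr7:119863716-119863916: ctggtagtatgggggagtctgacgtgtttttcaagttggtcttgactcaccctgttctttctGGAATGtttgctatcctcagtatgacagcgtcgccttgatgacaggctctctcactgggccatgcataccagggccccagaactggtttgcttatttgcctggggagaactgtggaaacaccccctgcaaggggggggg
Tead1 +109.2 kb, Sox2-EGFP+, chr7:119931909-119932109: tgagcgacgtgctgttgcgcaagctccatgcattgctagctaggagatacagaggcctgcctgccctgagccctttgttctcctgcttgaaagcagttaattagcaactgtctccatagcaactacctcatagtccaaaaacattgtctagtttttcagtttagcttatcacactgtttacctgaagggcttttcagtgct
Lats2 +44.0 kb, Sox2-EGFP+, chr14:58320878-58321078: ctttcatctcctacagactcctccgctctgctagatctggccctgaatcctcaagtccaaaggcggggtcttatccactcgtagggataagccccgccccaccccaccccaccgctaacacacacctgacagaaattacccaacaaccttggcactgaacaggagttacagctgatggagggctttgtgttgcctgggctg
Wwtr1 -28.9 kb, Sox2-EGFP-, chr3:57408649-57408849: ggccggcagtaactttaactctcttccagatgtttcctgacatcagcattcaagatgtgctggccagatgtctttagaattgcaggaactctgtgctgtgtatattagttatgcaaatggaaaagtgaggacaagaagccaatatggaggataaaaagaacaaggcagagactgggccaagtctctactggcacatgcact
Cyr61 +35.1 kb, Sox2-EGFP-, chr3:145277803-145278003: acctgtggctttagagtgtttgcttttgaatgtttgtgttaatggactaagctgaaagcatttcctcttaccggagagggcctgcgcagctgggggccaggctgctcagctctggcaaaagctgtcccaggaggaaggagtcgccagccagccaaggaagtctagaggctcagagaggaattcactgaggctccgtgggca
Cyr61 upstream, minus strand, chr3:145312950-145313199: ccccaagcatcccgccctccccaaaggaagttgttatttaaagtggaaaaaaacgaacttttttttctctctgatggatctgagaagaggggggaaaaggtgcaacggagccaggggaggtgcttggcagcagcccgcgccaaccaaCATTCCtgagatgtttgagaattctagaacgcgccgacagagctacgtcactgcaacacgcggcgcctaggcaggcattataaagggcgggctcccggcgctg

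Regions are named by gene and by the distance of their strongest summit from the summit of the gene's start-site region, with positive values in the direction of transcription. Within each list, peaks were ordered by their −log10 p, and the place of a peak is its rank as a percent of the list, so that 1% is near the top and 100% the end. This scale was needed because the lists differed in length. The 2 E12 Sox2-EGFP+ lists held 13817 and 7577 peaks, the E14.5 Sox2-EGFP+ lists 66332 and 22962, the E16 Sox2-EGFP+ lists 39314 and 65870, and the Sox2-EGFP- lists between 23302 and 23899. The lists hold no read counts per peak, and the absence of a peak says only that none was called. The paper reports fewer reads for both E12 samples than for any later sample. Its share of reads in peaks was far higher for E14.5 Sox2-EGFP+ replicate 1 than for replicate 2. Presence and place therefore also differ with depth and library quality, which were not corrected for. Before deposit each list was also cut down to peaks seen again in a further sample of that cell type, so sharing within a cell type was built in. For 3 E16 samples (Sox2-EGFP+ replicate 2 and both Sox2-EGFP- replicates) the cell type tag in the labels is opposite to the title. The titles were used, and the lists sided with them: of 7123 regions found in both E14.5 Sox2-EGFP+ lists and not in the E14.5 Sox2-EGFP- list, 92.7% had a peak in E16 Sox2-EGFP+ replicate 2 and 5.6% in each E16 Sox2-EGFP- list, though the overlap filter favours this. Peak presence at marker genes differed between the cell types. Of 110 regions at 7 prosensory genes, 25 (22.7%) had peaks in all 4 E14.5 and E16 Sox2-EGFP+ lists but no Sox2-EGFP- list. The opposite pattern, in all 3 Sox2-EGFP- lists, was found for 2 (1.82%). At 6 genes of otic mesenchyme the counts were 1 (3.45%) and 8 (27.6%) of 29 regions. Over all regions the 2 shares were 7.33% and 2.34%. The sort itself used Sox2, and 5 of the 25 regions were near Sox2. Peak height was compared as well, among regions with a peak in all 7 later samples. In these, limma called 0 of 10 prosensory and 0 of 3 mesenchymal regions. Of all such regions 0.322% were called higher in Sox2-EGFP+ and 0.0628% higher in Sox2-EGFP-. The median log2 differences in fold enrichment, Sox2-EGFP+ minus Sox2-EGFP-, were -0.24 for prosensory and -0.08 for mesenchymal regions, against -0.02 over all such regions.

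Most regions near the listed genes were found in Sox2-EGFP+ cells alone, in a proportion close to that over all regions. Of the 71 regions, 46 (64.8%) had peaks only in Sox2-EGFP+ samples, 20 (28.2%) in both cell types and 5 (7.04%) only in Sox2-EGFP- samples, and over all regions the shares were 65.5%, 28.8% and 5.63%. The long lists weigh on this count: 21 of the 46 rested on the 2 longest lists alone, E14.5 Sox2-EGFP+ replicate 1 and E16 Sox2-EGFP+ replicate 2. These were 29.6% of the 71 regions, against 35.4% of all regions. In the 2 E14.5 replicate 2 lists, which have similar lengths, 31 regions of the listed genes were found, 16 in both, 11 in Sox2-EGFP+ alone and 4 in Sox2-EGFP- alone. For all regions of that pair 47.8% were in both, 25.3% in Sox2-EGFP+ alone and 26.8% in Sox2-EGFP- alone. All 10 start-site regions, 1 for each gene, were shared between the cell types, and of the 61 other regions 10 (16.4%) were shared. Over all regions 20025 of 69415 were shared, but of those over 1 kb from any start site only 7887 of 54394. Less sharing away from start sites was thus found over all regions too, and is not particular to the listed genes. None of the 71 strongest summits lay in an exon away from a start site.

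**Figure D1:**
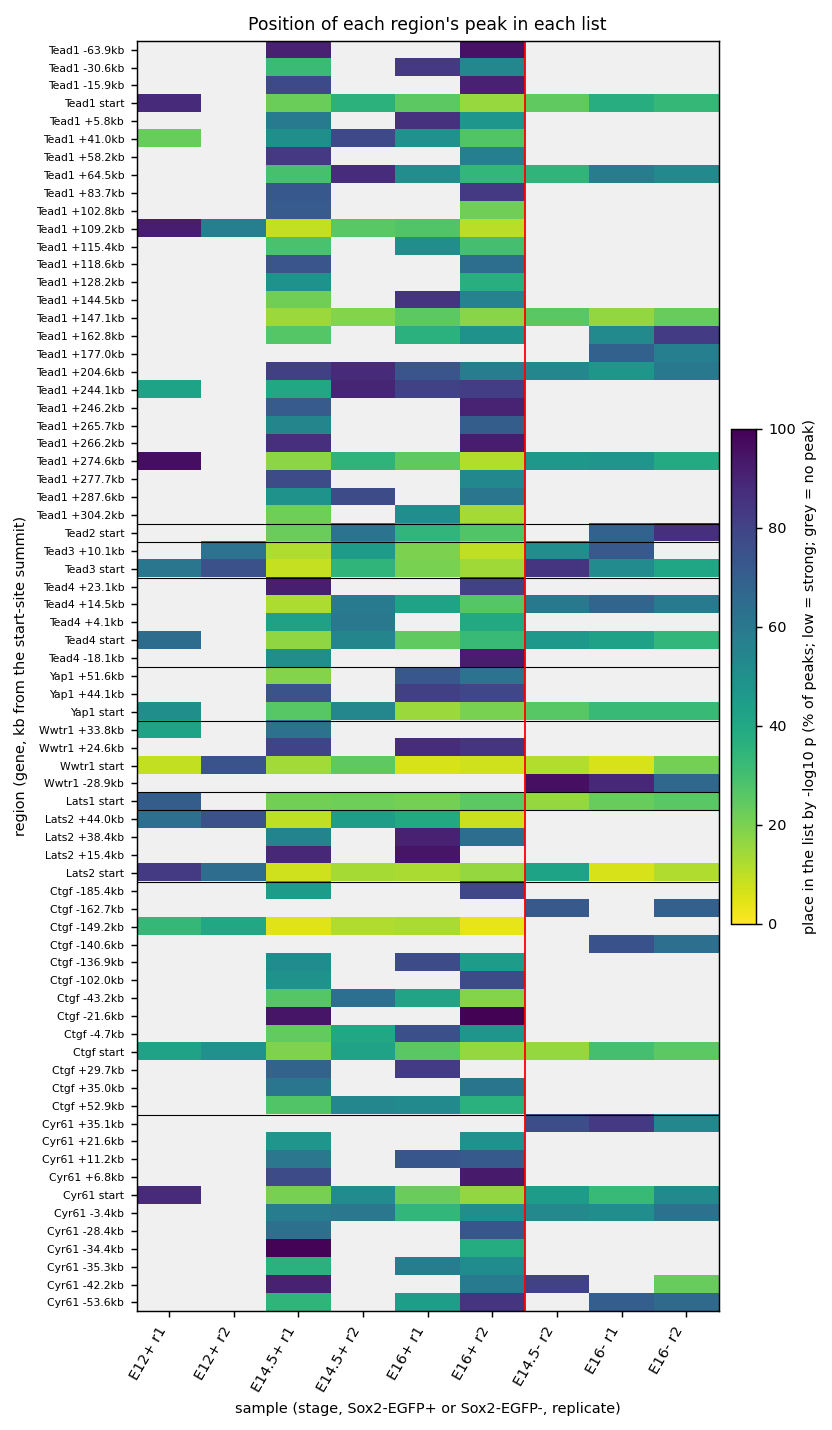
Place of each region's peak in each list, as a percent of the list ordered by −log10 p (yellow is strong, dark is weak, grey is no peak), for the 71 regions (rows, grouped by gene) in the 6 Sox2-EGFP+ samples (left of the red line) and the 3 Sox2-EGFP- samples (right). Start-site regions run across both sides, while 46 rows are filled on the left alone and 5 on the right alone.

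Tead1 had 27 regions, the most of the 10 genes, 15 of them in its introns outside the start site and 11 outside the gene. Ctgf had 13 regions and Cyr61 11, nearly all of them intergenic, followed by 5 for Tead4, 4 each for Wwtr1 and Lats2, 3 for Yap1, 2 for Tead3 and 1 each for Tead2 and Lats1. The number for a gene depends on how much sequence lies closer to it than to its neighbours. The samples differed in how much of this set they showed. The E12 lists held 16 and 8 of the regions, the E14.5 Sox2-EGFP+ lists 66 and 27, the E16 Sox2-EGFP+ lists 41 and 63, and the Sox2-EGFP- lists 20 at E14.5 and 23 and 24 at E16. Per 1000 peaks of a list, the number of peaks nearest to the listed genes was 1.11 ± 0.118 (SD, n = 6) in Sox2-EGFP+ samples and 1.08 ± 0.135 (SD, n = 3) in Sox2-EGFP- samples, and the ranges overlapped. The median rank percentile of these peaks, where 100 is the top of the list, was 44.9 ± 6.07 (SD, n = 6) in Sox2-EGFP+ and 47.4 ± 4.02 (SD, n = 3) in Sox2-EGFP- samples, again with overlapping ranges. Both Sox2-EGFP+ means include the 2 E12 samples, whose percentiles of 37.8 and 37.0 have no Sox2-EGFP- counterpart. With E14.5 and E16 samples only, the Sox2-EGFP+ values were 1.11 ± 0.147 per 1000 peaks and 48.7 ± 2.20 in percentile (SD, n = 4). The percentile difference between the cell types then changed sign, from -2.48 to 1.27. Between 0 and 5 regions of the listed genes stood among the top 10% of a list, where 10% of all its peaks stand by definition. In Sox2-EGFP+ lists these were 1 of 16 and 0 of 8 at E12, 5 of 66 and 0 of 27 at E14.5, and 1 of 41 and 4 of 63 at E16. In Sox2-EGFP- lists they were 0 of 20 at E14.5 and 2 of 23 and 0 of 24 at E16.

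**Figure D2:**
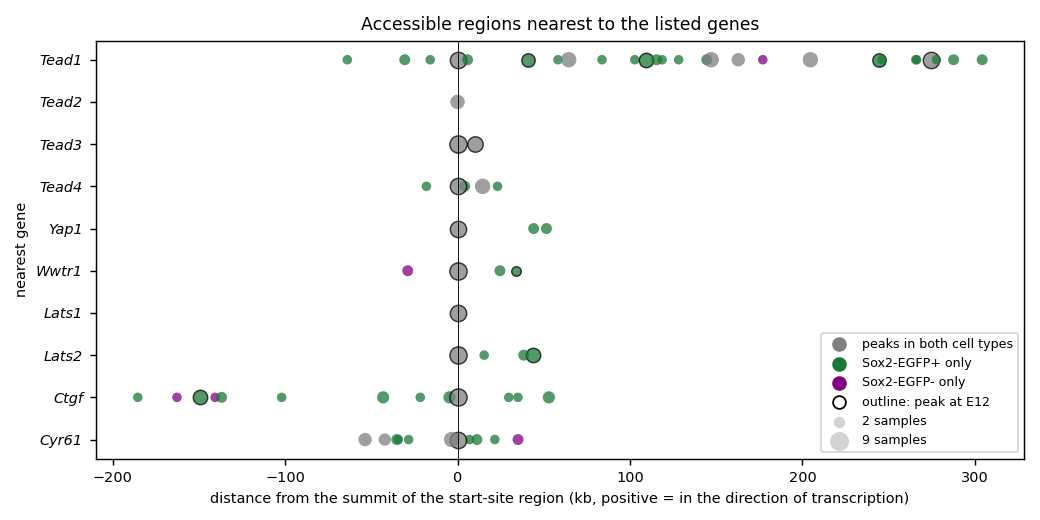
Distance in kb of each of the 71 regions from the summit of its gene's start-site region, 1 row per gene, coloured by the cell types with a peak (grey both, green Sox2-EGFP+ only, purple Sox2-EGFP- only), sized by the number of samples and outlined where an E12 sample had a peak. The regions of Tead1 reach 304.2 kb downstream and those of Ctgf 185.4 kb upstream, and the 5 purple regions lie near Tead1, Wwtr1, Ctgf and Cyr61.

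At the start sites of the Tead genes the places in the 2 cell types overlapped for Tead1 and Tead4 and did not overlap for Tead2 and Tead3, in lists of different length. How often places separate in this way over all regions was not counted. The Tead1 start-site region (chr7:119822301-119823694) stood at 22.3% and 35.8% of the E14.5 Sox2-EGFP+ lists and at 25.1% and 15.4% of the E16 Sox2-EGFP+ lists, against 24.3% at E14.5 and 37.9% and 33.4% at E16 in Sox2-EGFP-. At E12 it stood at 88.1% of 1 list and was missing from the shorter list. The Tead4 start-site region (chr6:128249951-128251099) stood at 16.5%, 54.6%, 24.5% and 32.6% in the 4 later Sox2-EGFP+ lists and at 46.7%, 42.7% and 33.6% in the Sox2-EGFP- lists. Among the later lists, the 2 extreme places of Tead4 were both of E14.5 Sox2-EGFP+ samples. At E12 the Tead4 region stood at 64.7% of the longer list and was missing from the shorter list. Tead3 (chr17:28486978-28488610) had a peak in all 9 samples, at 8.7%, 34.6%, 20.0% and 14.1% of the later Sox2-EGFP+ lists and at 84.9%, 51.8% and 40.8% of the Sox2-EGFP- lists, with no overlap, and at 60.9% and 75.3% at E12. Its normalized fold enrichments, a scale on which the samples were brought to 1 distribution, were 5.26, 5.00, 4.84 and 4.98 in the later Sox2-EGFP+ samples and 3.24 at E14.5 and 4.50 and 4.83 at E16 in Sox2-EGFP-. The E16 values were thus close, and the log2 difference of 0.31 (standard error 0.16, adjusted p by limma 0.521) became 0.08 without the single E14.5 Sox2-EGFP- sample and with E16 samples only. Tead2 is known from early embryos and neural progenitors. Its start-site region (chr7:52470948-52472506) stood at 22.7%, 62.0%, 34.1% and 27.2% of the later Sox2-EGFP+ lists and at 68.4% and 86.0% of the E16 Sox2-EGFP- lists. The region was missing from the E14.5 Sox2-EGFP- list and from both E12 lists. Tead2 had no second region, so its start site was the only accessible site assigned to it.

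The coactivators and kinases showed little separation at their start sites. The Wwtr1 start-site region (chr3:57379163-57380763) was strong almost throughout, at 14.0%, 25.0%, 6.06% and 7.39% of the later Sox2-EGFP+ lists, at 11.4%, 6.11% and 20.9% of the Sox2-EGFP- lists and at 9.31% and 74.6% of the E12 lists. The Yap1 start-site region (chr9:8003419-8004996) stood at 26.1%, 53.6%, 15.0% and 20.0% of the later Sox2-EGFP+ lists, at 25.8%, 32.3% and 32.7% of the Sox2-EGFP- lists and at 50.1% of the longer E12 list. At E12 Wwtr1 was present in both lists and Yap1 was missing from the shorter list, which held only 4 of the 10 start-site regions. Lats1 (chr10:7400335-7401839) stood between 15.6% and 25.4% in all 7 later samples, the narrowest span of the 10 genes, and Lats2 (chr14:58364161-58365449) between 5.93% and 41.9%. Lats2 had peaks in all 9 samples, at 83.0% and 64.4% in the E12 lists. Lats1 stood at 70.4% of the longer E12 list and was missing from the shorter list.

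The target genes were accessible at their start sites in both cell types. The Ctgf start-site region (chr10:24315064-24316012) had a peak in all 9 samples, at 42.3% and 49.4% at E12, at 19.3%, 42.4%, 25.4% and 15.9% in the later Sox2-EGFP+ lists and at 15.9%, 29.6% and 25.0% in the Sox2-EGFP- lists. Cyr61 (chr3:145312266-145313200) stood at 20.6%, 51.8%, 22.8% and 16.3% in the later Sox2-EGFP+ lists, at 45.2%, 32.5% and 52.4% in the Sox2-EGFP- lists and at 87.6% of the longer E12 list. For both genes the cell types overlapped. Peaks in all 9 samples were found for the start sites of Tead3, Wwtr1, Lats2 and Ctgf, 4 of 71 regions (5.63%), against 7.32% of all regions.

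**Figure D3:**
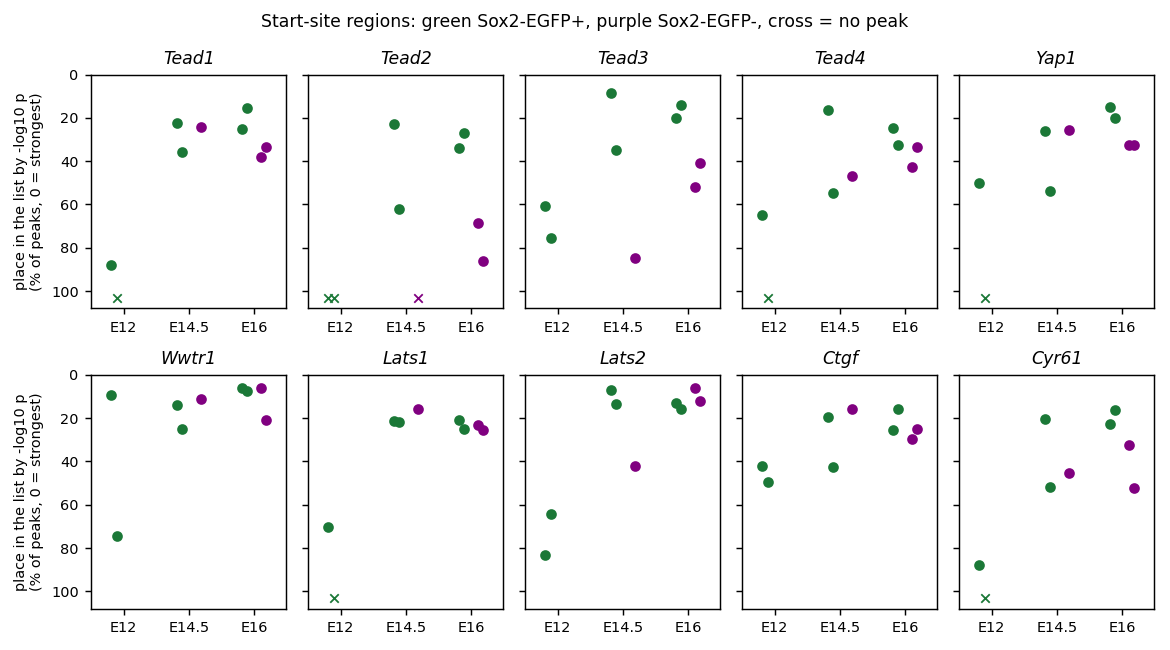
Place of the start-site region of each of the 10 genes in each list (y axis, percent of the list ordered by −log10 p, strong at the top) by stage (x axis), with a point per sample, green for Sox2-EGFP+ and purple for Sox2-EGFP-, and a cross where no peak was listed. Green and purple points separate at E14.5 and E16 for Tead3, with purple between 40.8% and 84.9%, and lie together for Lats1.

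Over 1 kb from any start site, 8 regions had peaks in all 4 E14.5 and E16 Sox2-EGFP+ lists but no Sox2-EGFP- list, 11.3% of the 71, against 7.33% of all regions. Of these, 3 also had peaks in both E12 samples (4.23%, against 0.794% of all regions): one near Ctgf, one in Tead1 and one in Lats2. With −log10 q of at least 5 for every peak, the counts became 6 of 72 (8.33%, against 4.2%) and 1 of 72 (1.39%, against 0.261%), since Tead1 +109.2 kb and Lats2 +44.0 kb lost both E12 peaks and Ctgf -149.2 kb kept all 6. Without the 3 samples whose tag is opposite to the title, the counts were 9 (12.7%, against 8.01%) and 3 (4.23%, against 0.841%). The strongest was the Ctgf -149.2 kb region (chr10:24165615-24166555), an intergenic site far upstream of Ctgf. It ranked 3156 and 2769 at E14.5 and 4948 and 2337 at E16, or 4.76%, 12.1%, 12.6% and 3.55% of the lists, and 4600 and 3055 at E12, or 33.3% and 40.3%. Among the 5000 highest peaks of each list it was the one region of the 8 that kept its pattern, with peaks in 6 Sox2-EGFP+ lists and none in Sox2-EGFP- lists. Fewer open cells and less opening in each cell cannot be told apart in such pooled material.

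Tead1 +109.2 kb (chr7:119931688-119932307), in a Tead1 intron, stood at 92.3% and 56.7% at E12, 9.2% and 25.7% at E14.5 and 27.2% and 10.5% at E16. Lats2 +44.0 kb (chr14:58320691-58321297) lies in a Lats2 intron, at -2.25 kb (upstream) from its nearest annotated Lats2 start site. This Lats2 region stood at 63.5% and 75.1% at E12, 9.38% and 43.8% at E14.5 and 39.1% and 8.06% at E16. In both regions the places at E14.5 and E16 were nearer to the top than those at E12, in longer lists from samples with more reads. The 5 regions without a full set of E12 peaks were Tead1 +41.0 kb and Tead1 +244.1 kb, each with a peak in the longer E12 list, and Ctgf -43.2 kb, Ctgf -4.7 kb and Ctgf +52.9 kb, with none. Tead1 +41.0 kb (chr7:119863553-119864323) is intronic and stood at 23.4% of the longer E12 list, 50.4% and 77.9% at E14.5 and 49.5% and 27.1% at E16. Tead1 +244.1 kb (chr7:120066323-120067487) lies beyond the annotated end of Tead1 and stood at 42.0%, 40.1%, 89.5%, 80.2% and 81.9% in the same order. Around Ctgf, the -43.2 kb region (chr10:24271775-24272758) stood at 26.4% and 63.6% at E14.5 and 41.5% and 18.4% at E16, and the -4.7 kb region (chr10:24310020-24310899) at 24.1%, 40.2%, 75.7% and 47.6%. The Ctgf +52.9 kb region (chr10:24368177-24368522) lies in an intron of Enpp1, the next gene, at 27.3%, 53.9%, 52.1% and 36.1%. Ctgf thus held 4 of the 8 regions, Tead1 3 and Lats2 1, and the other 7 genes 0.

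The opposite pattern, peaks in each of the 3 Sox2-EGFP- lists and none in Sox2-EGFP+ lists, was found for 2 regions, 2.82% of the 71, against 2.34% of all regions. Wwtr1 -28.9 kb (chr3:57408553-57408911), between Wwtr1 and its upstream neighbour, stood at 96.0% at E14.5 and 88.3% and 66.0% at E16. Cyr61 +35.1 kb (chr3:145277314-145278067), beyond the 3′ end of Cyr61, stood at 76.3% at E14.5 and 83.4% and 53.4% at E16. Both were thus in the weaker part of every list that held them, unlike Ctgf -149.2 kb. The other 3 regions confined to Sox2-EGFP- lists, Tead1 +177.0 kb, Ctgf -162.7 kb and Ctgf -140.6 kb, had peaks in 2 of the 3 samples, between 56.9% and 74.9% of the lists. Ctgf -140.6 kb and Ctgf -162.7 kb lie on either side of the strongest Sox2-EGFP+ region of the gene. The counts at otic mesenchyme genes are given above, and the part of admixed mesenchyme in these 5 regions was not tested.

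**Figure D4:**
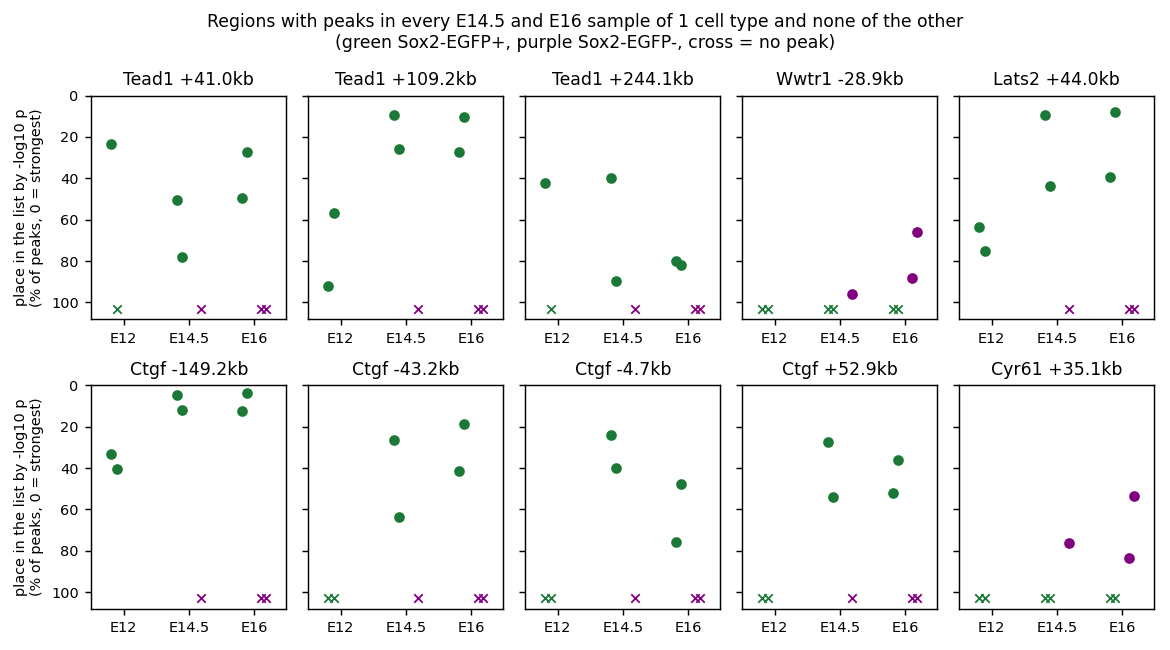
Place in each list (y axis, percent of the list ordered by −log10 p, strong at the top) by stage (x axis) of the 10 regions with peaks in every E14.5 and E16 sample of 1 cell type and in no sample of the other, with a point per sample, green for Sox2-EGFP+ and purple for Sox2-EGFP-, and a cross where no peak was listed. The Ctgf -149.2 kb region reaches 3.55% of a list, and the 2 purple regions lie between 53.4% and 96.0%.

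Fold enrichment over the local background, as the peak caller gave it, was compared for regions with a peak in all 7 E14.5 and E16 samples. Of the 15 such regions near the listed genes, 0 were called by limma at an adjusted p of 0.05, in a fit where 41 of 12735 regions (0.322%) were higher in Sox2-EGFP+ and 8 (0.0628%) higher in Sox2-EGFP-. At an unadjusted p of 0.05 the counts were 3 of 15 (20%) and 1386 of 12735 (10.9%). A region had to have a peak in every sample to enter, so the regions of 1 cell type described above are not among them. The log2 differences, Sox2-EGFP+ minus Sox2-EGFP-, ran from -0.42 to 0.31 with a median of -0.15 over the 15 and -0.02 over all, and 12 of the 15 were below 0.

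The Ctgf start site had normalized fold enrichments of 4.56 and 6.12 at E14.5 and 4.80 and 5.21 at E16 in Sox2-EGFP+, and of 7.45 at E14.5 and 6.49 and 6.37 at E16 in Sox2-EGFP-. Every Sox2-EGFP- value was above every Sox2-EGFP+ value, and how often groups separate in this way over all tested regions was not counted. The log2 difference was -0.42 with a standard error of 0.16, and limma gave an adjusted p of 0.306, between 0.0839 and 1 under the alternatives. The Tead1 +204.6 kb region, the last Tead1 intronic site, had 3.90, 4.95, 4.23 and 4.55 in Sox2-EGFP+ and 5.90, 6.21 and 5.42 in Sox2-EGFP-, a log2 difference of -0.41 with a standard error of 0.15 and an adjusted p by limma of 0.303. Its groups did not overlap either, and it passed the threshold when −log10 p replaced the fold enrichment, with a log2 difference of -1.01 and an adjusted p by limma of 0.0345, the lowest over its alternatives, which reached 1. The Lats1 start site had 5.47, 7.74, 5.97 and 5.35 in Sox2-EGFP+ and 8.49, 6.88 and 7.22 in Sox2-EGFP-, where the groups overlapped, with a log2 difference of -0.35, a standard error of 0.16 and an adjusted p by limma of 0.44.

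**Figure D5:**
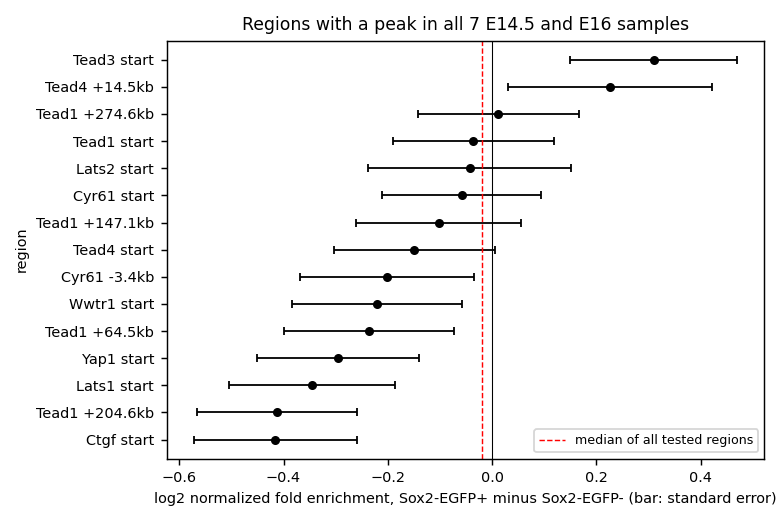
Difference in log2 normalized fold enrichment between Sox2-EGFP+ and Sox2-EGFP- (x axis, points, with standard errors as bars) for the 15 regions of the listed genes with a peak in all 7 E14.5 and E16 samples, and the median of all 12735 regions tested as a dashed line. The differences run from -0.42 at the Ctgf start site to 0.31 at the Tead3 start site, and none was called.

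Across stages, 7 regions of the listed genes had peaks in all 6 Sox2-EGFP+ samples, the start sites of Tead3, Wwtr1, Lats2 and Ctgf and the 3 regions with no Sox2-EGFP- peak. By limma 0 of 5733 regions (0%) were called in either direction between E12 and E14.5 or between E14.5 and E16, and so 0 of the 7. At an unadjusted p of 0.05, 493 (8.6%) and 62 (1.08%) of all regions were below the threshold, and 0 of the 7 in each comparison. Ctgf -149.2 kb had normalized fold enrichments of 7.91 and 7.97 at E12, 9.26 and 9.31 at E14.5 and 8.65 and 9.85 at E16. Its E12 values were below all later ones, but the log2 difference of 0.23 between E14.5 and E12 had a standard error of 0.20 and an adjusted p by limma of 0.754. Tead1 +109.2 kb differed by 0.34 with a standard error of 0.23, and by 0.07 without E12 replicate 1 and 0.64 without E12 replicate 2. Lats2 +44.0 kb differed by 0.27 with a standard error of 0.27, and by -0.10 and 0.64 without E14.5 replicate 1 or 2. The 7 log2 differences, E14.5 minus E12, ran from -0.38 at the Ctgf start site to 0.41 at the Lats2 start site, with 5 above 0 and 2 below. Between E14.5 and E16 the 7 log2 differences lay between -0.28 and 0.18.

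The Tead core CATTCC was searched on both strands within 100 bp of the strongest summit of each region. It was found in 21 of the 71 regions (29.6%), against 13.0% of the 69357 regions on assembled chromosomes, and outside start sites in 16 of 61 (26.2%) against 14.7%. These shares are a description with no test, since neighbouring regions share their base composition and the genes were chosen by name. By class, the core was in 8 of the 20 shared regions, in 12 of the 46 of Sox2-EGFP+ alone and in 1 of the 5 of Sox2-EGFP- alone, and over all regions of these classes in 1753 of 19997, 6593 of 45458 and 684 of 3902. Of the 8 regions found in all later Sox2-EGFP+ samples, 2 held it, against 14.9% of all regions with this pattern. The 2 were Ctgf -149.2 kb and Tead1 +41.0 kb, whose cores are marked in the sequences above. Neither of the 2 regions of all Sox2-EGFP- samples held it, against 17.6% of all regions with that pattern. Of the 4 Tead start-site regions, those of Tead2 and Tead3 held 0 cores within 100 bp of the summit. The Tead4 start-site region had 3, the nearest at -9 bp, and the Tead1 start-site region had 2, at 8 and 20 bp. The 250 bp before the most upstream annotated start site of each gene were searched too. There Tead1, Tead3, Yap1, Wwtr1 and Cyr61 held 1 core each, Tead2, Tead4, Lats1 and Lats2 held 0, and 11.4% of 22241 genes held at least 1. For Lats2 this start site lies outside the start-site region described above. A match of these letters does not show that a Tead factor was bound there.

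Other genes of the pathway followed in lists chosen by function. Of 128 regions at 17 genes of the upstream pathway (kinases, scaffolds and membrane regulators), 9 (7.03%, against 7.33% of all regions) had peaks in all 4 later Sox2-EGFP+ lists but no Sox2-EGFP- list, and 8 (6.25%, against 2.34%) had peaks in the 3 Sox2-EGFP- lists but no Sox2-EGFP+ list. Of the 9, 4 were near the scaffold gene Wwc1 (Kibra), 2 near Frmd6 and 1 each near Wwc2, Fat4 and Amotl2. Of the 8, 3 were near Fat4, a giant cadherin that acts upstream of the kinases, and 3 near Wwc1. Dchs1, the Fat4 ligand, and Amotl2, which tethers Yap1, had 1 each of the 8. Wwc1, Fat4 and Amotl2 thus had regions of both patterns. Of 72 regions at 10 Yap1 and Tead targets, 8 (11.1%) and 1 (1.39%) did so, against the same 7.33% and 2.34%. This list overlaps others: it includes Lats2, whose +44.0 kb region is among the 8, and Amotl2, whose 11 regions were also counted among the 128 and hold 1 of the 8 and the 1 Sox2-EGFP- region. The Tead cofactor genes Vgll2, Vgll3 and Vgll4 had 29 regions, with 4 (13.8%) of the first kind, all in or near Vgll4, which competes with Yap1 for Tead factors, and 0 of the second. In the fold enrichment fit, 22, 10 and 3 regions of these lists were tested and 1 was called, higher in Sox2-EGFP+, where 0.322% of all regions were, and 0 were called higher in Sox2-EGFP-, against 0.0628%. This intronic Vgll4 region (chr6:114832664-114833761) had normalized fold enrichments of 6.95, 6.59, 5.89 and 7.29 in Sox2-EGFP+ and 3.67, 3.88 and 3.92 in Sox2-EGFP-, with no overlap. The log2 difference was 0.80 with a standard error of 0.15 and an adjusted p by limma of 0.026, and the alternatives gave between 0.73 and 1.48, with adjusted p values between 0.00261 and 1. The call was lost in 7 of the 14 alternatives: after median centring (0.0654), with E16 samples only (0.159), without the 3 samples of opposite tag (1), and without E14.5 Sox2-EGFP- replicate 2 (0.318), E16 Sox2-EGFP+ replicate 2 (0.239), E16 Sox2-EGFP- replicate 1 (0.149) or E16 Sox2-EGFP- replicate 2 (0.0825). With −log10 q of at least 5 it had no value, since 1 or more of the 7 samples then lacked its peak.

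Markers of other cell types were counted in the same way. The first kind of region, found in all 4 later Sox2-EGFP+ samples alone, made up 7.33% of all regions. Of this kind were 2 of 9 regions (22.2%) at 3 glial genes, both near Sox10, which otic epithelium also expresses. At 4 endothelial genes the count was 1 of 32 (3.1%), at 3 genes of the duct roof 1 of 13 (7.69%), and at the 2 macrophage genes found 0 of 4. Among the second kind, found in all 3 Sox2-EGFP- samples alone, the counts were 0, 3 (9.4%), 0 and 0, against 2.34% of all regions. Their part in the results was not tested.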

How the data were processed

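ATAC-seq was performed by the authors on FACS-sorted cells of litter-pooled cochlear ducts. Per the labels, reads were trimmed (Trim Galore), aligned to mm9 (Bowtie2), filtered (Picard, SAMtools) and peaks called (MACS2), with bedtools also named. The deposited list of each sample holds per peak a fold enrichment (a ratio over local background), −log10 p and −log10 q values and an integer score derived from them by the authors' peak caller. Samples were grouped by title. Regions, ranks and counts were computed in Python 3.11.15 from the 9 lists (286921 peaks) and GENCODE vM1. The highest fold enrichment of each region was log2-transformed, quantile normalized and compared with limma 3.58.1 (R 4.3.3), with stage and cell type as terms for 7 samples, or stage for the 6 Sox2-EGFP+ samples, and Benjamini-Hochberg adjustment over all regions. The fits were tested on simulated data with planted differences. Named regions were start-site regions, regions in all E14.5 and E16 samples of 1 cell type alone, and regions passing limma or with an unadjusted p under 0.05, the last chosen after the values were seen. The genes, lists and tests were chosen with earlier results of these data known, so scores over the genes carry no p. Per the methods, Sox2-EGFP+ replicates are separate litters and Sox2-EGFP- cells were collected alongside them in some cases, E16 included, so same-numbered samples of the 2 cell types may share a litter. Which samples do is not stated. Deviations of same-numbered E16 samples correlated at 0.167. E16 replicate 1 of both cell types was sequenced in batch 1, all others in batch 2. Alternatives covered scaling, thresholds, merging, batch, a replicate term and leaving out samples. The sequence before 1 start site is not reported here.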

Additional observations from a re-analysis of the deposited data

How the results depend on the processing

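The difference in peaks per 1000 between the cell types was 0.0277 and stayed within 1 SD, except at -0.199 with −log10 q of at least 5 and 0.152 with peaks over 1 kb from any start site. The difference in median rank percentile was -2.48, 1.27 with E14.5 and E16 samples only, and -12.5 among the 5000 highest peaks of each list. Regions with peaks in 1 cell type numbered 51 of 71, but 5 of 9 among the 5000 highest peaks and 15 of 31 in the E14.5 pair of similar length (added after the lengths were seen). Leaving out any sample kept 51, as the overlap filter of the lists requires. The cell type fit called 49 regions, 19 after median centring, 278 on −log10 p, 27 with −log10 q of at least 5, 0 with E16 samples only, 0 without the 3 samples of opposite tag (added after the files were seen) and between 0 and 316 without 1 sample. It gave 0 without E14.5 Sox2-EGFP- replicate 2, E16 Sox2-EGFP+ replicate 2 or E16 Sox2-EGFP- replicate 1, and 316 without E14.5 Sox2-EGFP+ replicate 2. The single E14.5 Sox2-EGFP- sample is assumed to vary like the other groups, and the cause of these shifts was not tested. Sequencing batch as a term gave 49. The replicate block, for a litter that same-numbered samples may share, gave 43 and ended no call named in the text. The stage counts stayed at 0 under every alternative run, the replicate block included. In the 3-pair form of the replicate block the differences were 0.0684 per 1000 peaks and 0.391 in percentile. Without 1 sample the Lats2 +44.0 kb difference between E14.5 and E12 ran from -0.10, reversed without E14.5 Sox2-EGFP+ replicate 1, to 0.64. The share of regions with the Tead core was 49.3% over whole regions and 5.63% for ACATTCCA, against 33.0% and 1.49% of all regions. With −log10 q of at least 5, Wwtr1 -28.9 kb, Tead1 +41.0 kb and Tead1 +244.1 kb lost their pattern and 1 of 3 regions kept peaks in all 6 Sox2-EGFP+ samples, and among the 5000 highest peaks only Ctgf -149.2 kb of the 10 regions kept it.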
